A study of Mus musculus with 34 samples.

Results

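KDM5C promoter peaks are the KDM5C ChIP-seq peaks of differentiating 3T3-L1 cells whose deposited distance to the nearest transcription start site was at most 1000 bp. They made up 2172 of the 14827 peaks in the deposited KDM5C table (14.6%), and they carried 2133 gene names, of which 39 had more than 1 peak. 3T3-L1 is a mouse preadipocyte line that turns into adipocytes after hormonal induction. KDM5C was profiled in 2 libraries at day 2 of differentiation, beside an input library. The series of 34 samples also holds 6 KDM5A libraries, 12 H3K4me3 libraries and 12 RNA libraries. RNA and H3K4me3 were measured in shKdm5ABC cells, which carried lentiviral shRNAs against Kdm5a, Kdm5b and Kdm5c, and in shLuc control cells with an shRNA against luciferase, each at day 0, 4 hours and day 2 with 2 replicates.

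Both kinds of cell were transduced for 24 h with polybrene at 6 ug/mL, 4 days before dexamethasone, insulin, IBMX and serum were added. No transduction is stated for the KDM5A, KDM5C and input samples. For ChIP, proteins were crosslinked first with DSG (0.2 mM, 45 min) and then with formaldehyde (1%, 10 min). Nothing in the labels says that replicates came from separate cultures, so each p measures the spread between these samples, which may be technical.

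KDM5C is a demethylase that removes methyl groups from tri- and dimethylated lysine 4 of histone H3. H3K4me3 marks the start sites of active and poised genes, and the KDM5 enzymes, KDM5A among them, have been found at many such promoters, where their loss can raise or lower transcription. During the first days after induction, 3T3-L1 cells pass through a round of cell division before they switch on the genes of lipid storage.

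The promoters of 8 genes are shown because they belong to the highest KDM5C peaks and to the highest KDM5C peaks without H3K4me3. Each has 250 bases before and 50 bases after the RefSeq start site (build GRCm38.p6, coding strand, 5′ to 3′), whereas peak positions are those of build mm9, so the 2 sets of positions are not comparable. Capitals mark any of 9 motifs on either strand. They are the E-box of MYC and related factors, CACGTG, and the GC motif that the ARID domain of KDM5A binds in vitro, CCGCCC. The E2F motif of cell cycle promoters is GCGGGAA, the NRF1 core of many housekeeping promoters is GCATGCG, and the ETS motif is read as CCGGAAG. The CRE core of cAMP-responsive promoters is TGACGT, and the YY1 core is written here as GATGGCG. The NF-Y motif is CCAAT, and the TATA motif is given by TATAAA. The 5 of the highest peaks lie at chr11:86757518-86757817 (Cltc, minus strand), chr5:137533257-137533556 (Gnb2, minus), chr5:75152001-75152300 (Pdgfra, plus), chr10:36974294-36974593 (Hdac2, plus) and chr11:103116075-103116374 (Hexim1, plus).
Cltc: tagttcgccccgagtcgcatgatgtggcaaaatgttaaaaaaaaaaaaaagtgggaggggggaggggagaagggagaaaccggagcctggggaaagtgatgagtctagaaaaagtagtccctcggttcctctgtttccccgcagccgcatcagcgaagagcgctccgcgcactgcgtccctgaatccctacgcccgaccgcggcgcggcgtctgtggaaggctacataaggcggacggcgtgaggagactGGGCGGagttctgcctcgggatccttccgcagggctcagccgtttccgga
Gnb2: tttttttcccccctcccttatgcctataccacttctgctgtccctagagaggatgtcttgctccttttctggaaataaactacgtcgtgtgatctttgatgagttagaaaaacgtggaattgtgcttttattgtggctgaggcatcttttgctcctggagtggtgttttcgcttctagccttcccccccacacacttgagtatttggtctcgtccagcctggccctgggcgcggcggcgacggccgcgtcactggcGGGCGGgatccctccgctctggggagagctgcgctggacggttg
Pdgfra: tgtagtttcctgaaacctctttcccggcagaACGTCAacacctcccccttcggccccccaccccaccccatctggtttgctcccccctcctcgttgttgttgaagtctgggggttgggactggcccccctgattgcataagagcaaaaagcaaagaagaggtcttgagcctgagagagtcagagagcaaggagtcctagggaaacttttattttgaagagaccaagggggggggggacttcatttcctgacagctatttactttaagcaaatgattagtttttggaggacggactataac
Hdac2: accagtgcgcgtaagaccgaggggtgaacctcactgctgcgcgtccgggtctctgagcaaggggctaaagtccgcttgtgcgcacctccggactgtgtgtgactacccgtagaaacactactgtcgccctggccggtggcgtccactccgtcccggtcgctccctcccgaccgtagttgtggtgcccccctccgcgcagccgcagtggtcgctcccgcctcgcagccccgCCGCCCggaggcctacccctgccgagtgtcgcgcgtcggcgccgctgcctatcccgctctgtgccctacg
Hexim1: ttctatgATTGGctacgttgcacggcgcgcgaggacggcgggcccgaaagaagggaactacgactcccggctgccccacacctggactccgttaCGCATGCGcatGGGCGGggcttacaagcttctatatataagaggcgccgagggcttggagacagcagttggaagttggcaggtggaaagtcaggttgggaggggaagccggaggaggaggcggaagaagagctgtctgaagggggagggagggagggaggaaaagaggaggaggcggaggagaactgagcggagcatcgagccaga

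The 3 promoters of high KDM5C peaks that overlapped no H3K4me3 peak lie at chr19:44203038-44203337 (Scd3, plus strand), chr2:158502362-158502661 (Adig, plus) and chr19:4989922-4990221 (Npas4, minus).
Scd3: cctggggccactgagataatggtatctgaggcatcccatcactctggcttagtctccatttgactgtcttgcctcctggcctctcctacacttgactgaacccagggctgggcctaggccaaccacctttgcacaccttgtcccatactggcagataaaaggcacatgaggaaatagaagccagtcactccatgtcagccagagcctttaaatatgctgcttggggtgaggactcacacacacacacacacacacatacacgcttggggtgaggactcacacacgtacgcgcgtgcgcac
Adig: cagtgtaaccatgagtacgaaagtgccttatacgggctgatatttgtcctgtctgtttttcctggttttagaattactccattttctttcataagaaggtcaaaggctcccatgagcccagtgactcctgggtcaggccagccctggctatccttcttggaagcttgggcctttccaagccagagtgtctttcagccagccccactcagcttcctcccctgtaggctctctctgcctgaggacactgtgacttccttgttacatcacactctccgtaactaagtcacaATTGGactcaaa
Npas4: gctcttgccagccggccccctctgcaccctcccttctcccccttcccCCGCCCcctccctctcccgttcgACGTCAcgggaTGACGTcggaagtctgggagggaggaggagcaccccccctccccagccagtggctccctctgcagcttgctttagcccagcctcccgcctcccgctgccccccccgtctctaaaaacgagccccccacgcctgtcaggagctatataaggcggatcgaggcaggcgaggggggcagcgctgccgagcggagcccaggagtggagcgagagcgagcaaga

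These windows differ in base composition. Hdac2 has 36 CpG dinucleotides and Cltc 27, against 6 in Scd3 and 3 in Adig. The GC motif occurs once in Cltc, Gnb2, Hdac2, Hexim1 and Npas4 and was not found in the windows of Pdgfra, Scd3 and Adig.

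Of the genes with a KDM5C promoter peak, 1342 have a single RefSeq promoter in the reference table, and the motif shares are over these. The GC motif was found in 68.2% of them, against 69.1% of 5461 promoters with an H3K4me3 peak and no KDM5C promoter peak and 35.2% of all 22862 such promoters. The E-box was found in 11.8%, against 10.1% and 7.12%, and the E2F motif in 11.1%, against 8.62% and 4.6%. ETS motifs were in 16%, against 20.6% and 9.12%. Median CpG counts were 23, 22 and 7 per promoter. The motif content of KDM5C promoters was thus near that of other H3K4me3 promoters. The 111 promoters of KDM5C peaks that overlapped no H3K4me3 peak had a median of 6 CpG, the GC motif in 26.1% and the TATA motif in 16.2%, against 7.30% for TATA over the 1342 and 14.8% over all 22862.

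Depth differed between the KDM5C libraries. The smallest step of the tag values shows what 1 read is worth: 3.39 tags in replicate 1, 1.23 in replicate 2 and 0.90 in the input. With tags scaled to a common total of 10 M (M, mega), these steps correspond to library totals of 2.95 M, 8.13 M and 11.1 M reads. KDM5A libraries held 3.87 M to 17.6 M reads and H3K4me3 libraries 8.37 M to 13.6 M, while the RNA table gives no counts. All 3 knockdown targets were lower in shKdm5ABC cells. Kdm5c RNA was 7.17 and 6.91 at day 2 in shKdm5ABC cells, against 8.29 and 8.49 in shLuc cells on the deposited log2 scale of tags per kb. It fell by 1.35 (SE 0.18, adjusted p 0.0029 by limma), and Kdm5a and Kdm5b fell by 0.90 and 0.65 (adjusted p 0.00424 and 0.00664). The 11 adipocyte and preadipocyte markers were all detected (log2 level of at least 1) in every group. Of 12 markers of other cell types, 2 to 4 per group were detected, and the macrophage and leukocyte genes Adgre1 and Ptprc had log2 values below 0 throughout. Mean Csf1r, a macrophage gene, was 1.36 and 1.04 at day 0 and 4 hours in shKdm5ABC cells, and under 1 in all other groups. Mean Cdh5, an endothelial gene, was 1.73 and 1.42 at 4 hours in shKdm5ABC and shLuc cells, and under 1 at the other times. Cd68 and Des were detected in every group. Mean Cd68 was 5.85 in shKdm5ABC cells and 4.35 in shLuc cells at day 0, 5.62 and 4.35 at 4 hours, and 4.66 and 4.62 at day 2. Mean Des was 4.99 and 4.06 at day 0, 3.83 and 3.18 at 4 hours and 3.99 and 3.87 at day 2 in shKdm5ABC and shLuc cells. The part of these markers in the results was not tested.

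The H3K4me3 columns go against their headings at some adipocyte genes. At Cidec, a lipid droplet gene, the columns headed KDM5_KD_4h had 350 and 389 tags and those headed Control_D2 had 36.4 and 23.2. Cidec RNA was 3.78 and 4.23 in shKdm5ABC cells at 4 hours, whereas it was 11.23 and 12.09 in shLuc cells at day 2. Retn, an adipocyte hormone gene, showed the same, with 249 and 176 H3K4me3 tags in KDM5_KD_4h columns and 24.2 and 12.7 in Control_D2 columns. The gap between these columns was not as wide at every adipocyte gene looked at. The headings were kept, and no direction of a knockdown or time effect is drawn from H3K4me3 here. Means over the 12 columns do not depend on the headings.

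KDM5C tags at promoter peaks were modest. The median peak had 27.2 tags in KDM5C replicate 1 and 12.3 in replicate 2, against 1.80 in the input, which corresponds to 8, 10 and 2 reads. As (tags + 1)/(input tags + 1), the median was 10.8 in replicate 1 and 5.06 in replicate 2. Both libraries reached 4 times the input at 1474 of the promoter peaks (67.9%), against 6653 of the 12655 KDM5C peaks farther from a start site (52.6%). The share rests on the added constant: with (tags + 5)/(input tags + 5) it was far lower, as given in the last section. A single replicate 1 read (3.39 tags) over no input tag reaches 4 times the input, while a single replicate 2 read (1.23 tags) does not. Replicate 1 reached that level at 2161 promoter peaks and replicate 2 at 1485, so the deeper library set the count. Peaks were called on these ChIP signals, so the ratio over input describes them and does not test them. No promoter peak had a ratio of mean tags to input below 4.90, a value shared by 15 peaks, among them those of Pnliprp1 and Hsd11b2 with 6.79 and 9.84 KDM5C tags over 0.90 input tags.

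The peaks near start sites included the stronger and better replicated ones of the table. At least 10 reads in both KDM5C libraries were found at 754 promoter peaks (34.7%), against 1042 farther peaks (8.23%). Of the 438 peaks with a mean of 50 tags or more, 206 were promoter peaks. Spearman's rho between the KDM5C replicates was 0.617 over promoter peaks and 0.123 over farther peaks, as a description across peaks that share the same libraries. Tags at promoter peaks also followed the input: rho of mean KDM5C tags with input tags was 0.852 over the 2172 peaks. No promoter peak had a ratio of mean tags to input below 4.90, so high input occurred only with high KDM5C tags. The parts of this lower limit and of local input coverage in the rho and in the order of peaks were not tested.

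Peak centres clustered at the start site. Within 500 bp lay 1581 promoter peaks (72.8%), and 492 lay in the 250 bp just upstream of the start site. Median tags were highest in the 2 bins from 500 bp upstream to the start site, at 30.5 in both in replicate 1 and at 16 and 14.8 in replicate 2, over 1.80 in the input. They were low 750 to 1000 bp downstream, at 20.4 and 11.1 over 0.90. At the limit of 1000 bp, the peaks of Kcnj13 (-1000 bp, 17 and 6.15 KDM5C tags, input 0) and Hyal4 (1000 bp, 3.39 and 14.8, input 0) fell inside. Those of Vstm2l (-1006 bp, 81.5 and 39.4, input 6.30) and 2610034M16Rik (1006 bp, 17 and 7.38, input 0) fell outside.

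**Figure D1:**
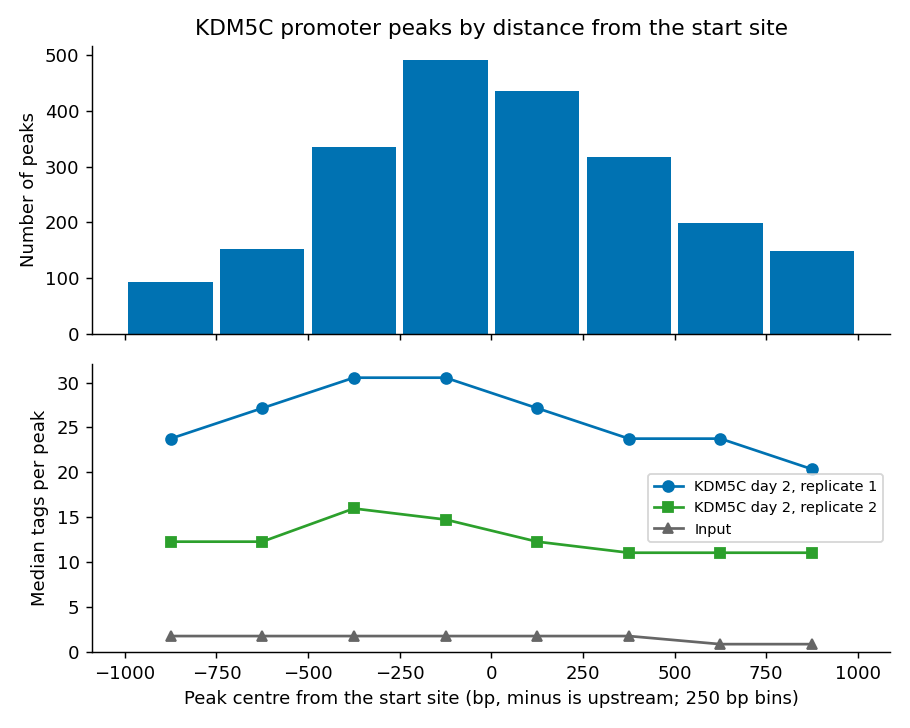
Number of KDM5C promoter peaks (top) and median tags per peak in the 2 KDM5C libraries and the input (bottom) in 250 bp bins of distance from the start site. The bins next to the start site hold 492 and 436 peaks, and KDM5C medians stay above the input in all 8 bins.

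The highest promoter peak belonged to Suv420h1, a methyltransferase of lysine 20 of histone H4. It had 733 KDM5C tags in replicate 1 and 346 in replicate 2, against 13.5 in the input, and lay 715 bp downstream of the start site (chr19:3767262-3769010, mm9). Cltc, the clathrin heavy chain, followed with 557 and 202 tags over 4.50, and Gnb2, a G protein beta subunit, with 431 and 204 over 9. The 12 highest peaks were taken among those with both KDM5C libraries at least 4 times the input. Replicate 1 exceeded replicate 2 in all 12, as it did at 1920 of the 2172 promoter peaks (88.4%).

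Several of the 12 belong to chromatin and transcription regulators. Kdm3a, a demethylase of lysine 9 of histone H3, had 183 and 122 KDM5C tags over 14.4. Ogt, which attaches O-GlcNAc to nuclear proteins, had 193 and 97.2 over 5.40. Hdac2, a histone deacetylase, had 204 and 75.1 over 3.60, and Hexim1, an inhibitor of the elongation kinase P-TEFb, had 187 and 91.1 over 8.10. Pdgfra, the PDGF receptor that marks preadipocytes, had 305 and 112 over 26.1. Also among them were Mir1894 (360 and 156 over 32.4), the scaffold gene Gipc1 (227 and 65.2 over 8.10) and the calmodulin gene Calm2 (224 and 50.4 over 9.90). Input tags were also high at Mir1894 and Pdgfra, above the upper quartile of 2.70 of all promoter peaks.

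**Figure D2:**
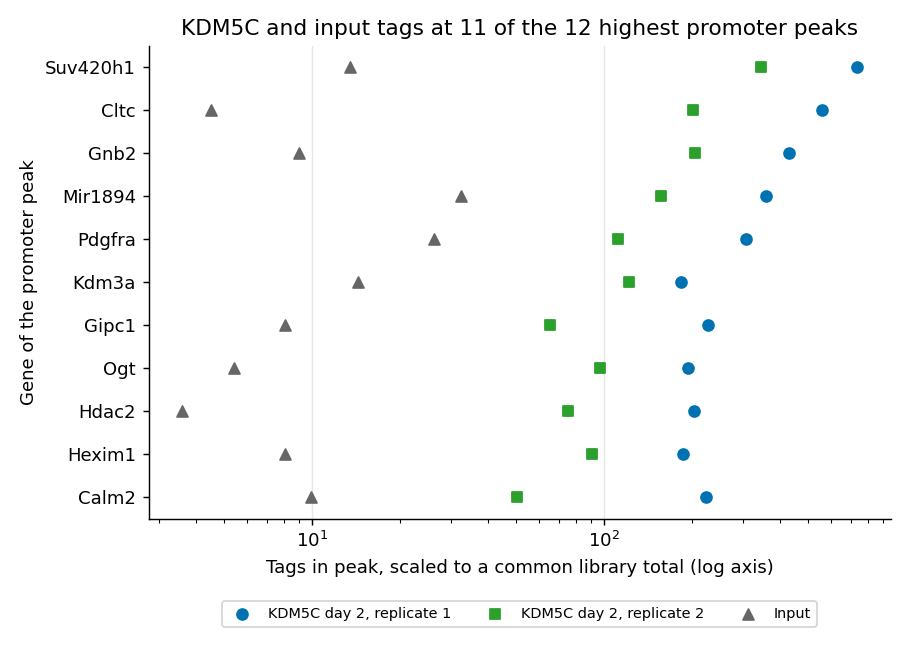
Tags on a log axis in KDM5C replicate 1, KDM5C replicate 2 and the input at 11 of the 12 highest promoter peaks, all with both libraries at least 4 times the input. KDM5C points run from 50.4 to 733 tags and input points from 3.60 to 32.4.

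Most KDM5C promoter peaks lay in regions with KDM5A and H3K4me3. Of the 2172, 2044 (94.1%) overlapped one of the 87525 KDM5A peaks by at least 1 bp, 1981 (91.2%) overlapped an H3K4me3 peak, and 1960 (90.2%) overlapped both. A KDM5A peak was overlapped by 34.2% of the farther KDM5C peaks and an H3K4me3 peak by 4.29%, but the H3K4me3 table holds only peaks within 3000 bp of a start site, which limits the second share. Read the other way, the overlapped peaks were 1895 of 11573 KDM5A promoter peaks (16.4%) and 1936 of 10702 H3K4me3 peaks (18.1%). KDM5C replicate 1 held only 2.95 M reads, and the median promoter peak had 8 and 10 reads in the 2 KDM5C libraries. Promoters without a called KDM5C peak are therefore not shown to lack KDM5C.

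KDM5A and H3K4me3 peaks that overlapped a KDM5C promoter peak had more tags than those that did not. In KDM5A libraries the medians with KDM5C were 254 tags in replicate 1 and 190 in replicate 2 at day 2, against 197 and 149 without it. The ratio of medians was 1.25 to 1.29 in the 6 KDM5A libraries and 1.08 in the input. For H3K4me3 the ratio was 1.19 to 1.25 in the 12 columns, and median widths were 2715 bp with and 2324 bp without KDM5C. Width was compared for H3K4me3 peaks only, and its part in the ratios was not tested.

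**Figure D3:**
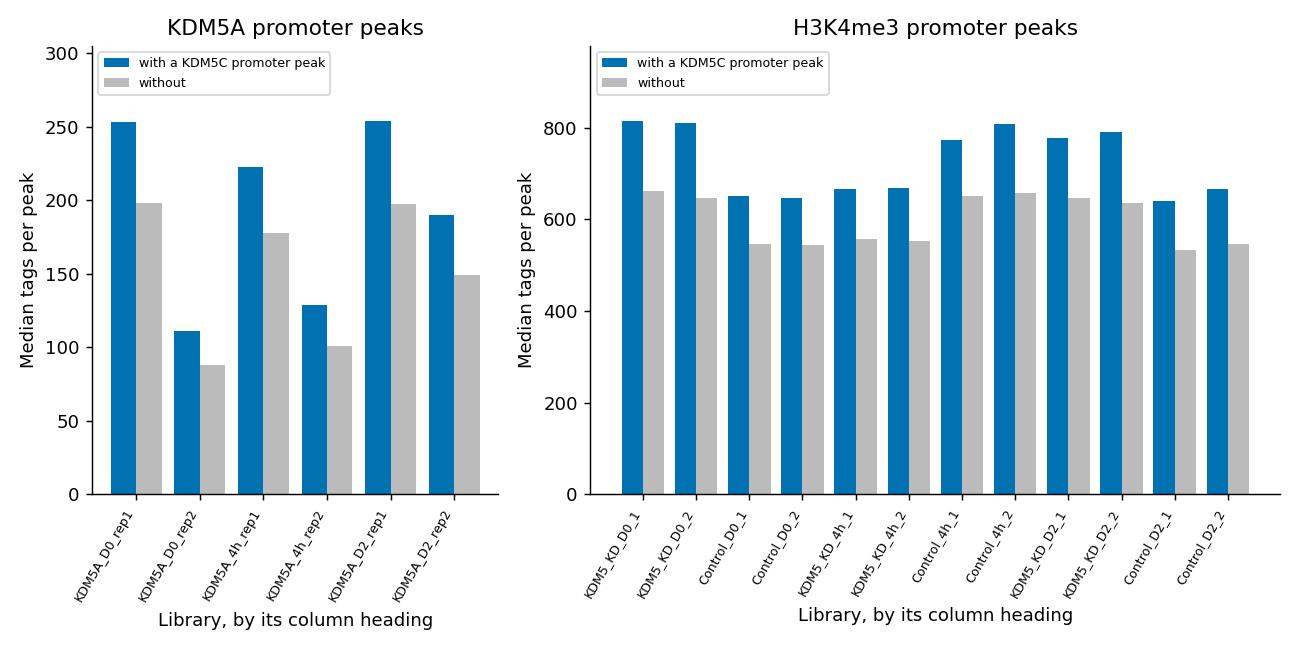
Median tags per peak for KDM5A promoter peaks in 6 libraries (left) and H3K4me3 peaks in 12 columns (right), with (blue) and without (grey) an overlapping KDM5C promoter peak. Blue bars are higher in each library, by ratios of 1.25 to 1.29 for KDM5A and 1.19 to 1.25 for H3K4me3.

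Within the promoter peaks, the amount of KDM5C went with the other marks only weakly. Spearman's rho of mean KDM5C tags was 0.183 with KDM5A tags at day 2 (2044 peaks), 0.144 with mean H3K4me3 tags (1981 peaks) and 0.0780 with mean RNA level (2041 peaks). In 4 equal groups of 543 peaks, from the lowest to the highest KDM5C tags, the share of peaks that overlapped KDM5A was 82.9%, 95.9%, 98.0% and 99.6%. The share that overlapped H3K4me3 was 77.9%, 93.9%, 95.6% and 97.4%.

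Among the 191 promoter peaks that overlapped no H3K4me3 peak, the highest were next to Scd3, Adig, Bcl2l10, Npas4, 3930402G23Rik and 1700054A03Rik. Scd3, a stearoyl-CoA desaturase, had 136 and 49.2 KDM5C tags over 4.50, and Adig, an adipocyte protein of the adipogenin family, had 126 and 55.4 over 5.40. Both peak centres lay inside the transcribed side, at 563 and 773 bp. Both RNAs rose with differentiation: Scd3 was 5.27 and 6.29 at day 2 in shLuc cells, against 1.71 and 1.10 at day 0 (difference 4.38, SE 0.39, adjusted p 8.57e-06 by limma). Adig was 5.57 and 6.83 at day 2, against 2.25 and 2.08 at day 0 (difference 4.03, SE 0.44, adjusted p 3.12e-05). Npas4, an activity-induced neuronal transcription factor with 88.2 and 52.9 tags over 5.40, was near the floor in RNA (-0.12 and -0.31 at day 2, against 1.87 and 1.22 at day 0).

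The peaks without H3K4me3 fall into those with KDM5A (84) and those with neither (107). The genes of the 84 had 72 transcripts, with a median level of 3.01 (log2 of tags per kb), against 7.21 over the 1902 transcripts of peaks with both marks. Of the 72, 58 passed the filter on low values and were tested. For day 2 against day 0 in shLuc cells, 27 of the 58 (46.6%) were called higher and 12 (20.7%) lower, with a median difference of 0.56. Over all genes of promoter peaks, 30.6% were higher and 27.3% lower with a median of 0.03, and over all tested transcripts the shares were 27.1% and 27.8%. The filter asks for a log2 value of at least 1 in only 2 libraries. A gene high only at day 2 or only at day 0 therefore passes it, while a gene low throughout does not. In a class of low median level this selection enters the shares called, and its part in them was not tested. The classes were defined by the ChIP tables alone, and the contrast between them was not tested. Peaks with neither mark had medians of 17 and 4.92 KDM5C tags over 0 input tags, and 47.7% reached 4 times the input in both libraries, against 75% of the 84.

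Of the 128 promoter peaks without a KDM5A peak, the highest were those of Sgk1, Slc22a20, Adipor2 and Ikbkg. Sgk1, a kinase induced by glucocorticoids, had 57.7 and 20.9 KDM5C tags over 4.50 and a strong H3K4me3 peak of 1840 tags on average over the 12 columns. Adipor2, an adiponectin receptor, had 44.1 and 14.8 over 3.60. Its RNA was 12.07 and 12.27 at day 2 in shLuc cells, against 8.33 and 8.6 at day 0 (difference 3.70, SE 0.21, adjusted p 8.44e-07 by limma).

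RNA was matched for 2106 promoter peaks, which gave 2067 transcripts. Of these, 2002 passed the filter of a log2 value of at least 1 in 2 libraries and 65 did not. In these bulk samples fewer cells of a type and less RNA per cell cannot be told apart. The median level of the 2002 was 7.11 to 7.14 in shKdm5ABC libraries and 7.12 in shLuc libraries at day 2, against 6.71 to 6.75 over all 13534 tested transcripts. Genes with a KDM5A promoter peak of at least 20 day 2 tags and no KDM5C promoter peak had medians of 7.17 to 7.22 in the same libraries (7379 transcripts). Genes of KDM5C promoter peaks were thus expressed about as highly as other KDM5A promoters.

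Knockdown of the KDM5 enzymes changed the RNA of these genes about as often as that of other genes. At day 2, 170 of the 2002 were called between shKdm5ABC and shLuc cells (8.49%, 98 higher and 72 lower), against 9.00% of all tested transcripts, of which 5.66% were higher and 3.34% lower. With the replicate number as a block, 600 were called (30.0%, 272 higher and 328 lower), against 28.1%. At day 0 the calls were 26 (12 higher, 14 lower), 1.3% against 1.51% (0.606% higher and 0.901% lower), and 198 with the block, against 9.44%. At 4 hours they were 31 (15 higher, 16 lower), 1.55% against 1.44% (0.798% higher and 0.643% lower), and 207 with the block, against 9.68%. Left out 1 library at a time, the day 2 count was 19 to 138. It was 19 without shKdm5ABC replicate 1, 26 without shLuc replicate 2 and 66 without shLuc replicate 1. A fit to the 4 day 2 libraries alone called 2. At day 0 it was 5 to 11 and at 4 hours 2 to 7 whichever of the 4 libraries was left out. These shares lie near the background and are no result about the genes with KDM5C. In the 4 equal groups of rising KDM5C tags, 7.89%, 9.18%, 7.39% and 9.83% of transcripts were called at day 2, and the median log2 changes were -0.0019, -0.0084, -0.03 and -0.04.

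**Figure D4:**
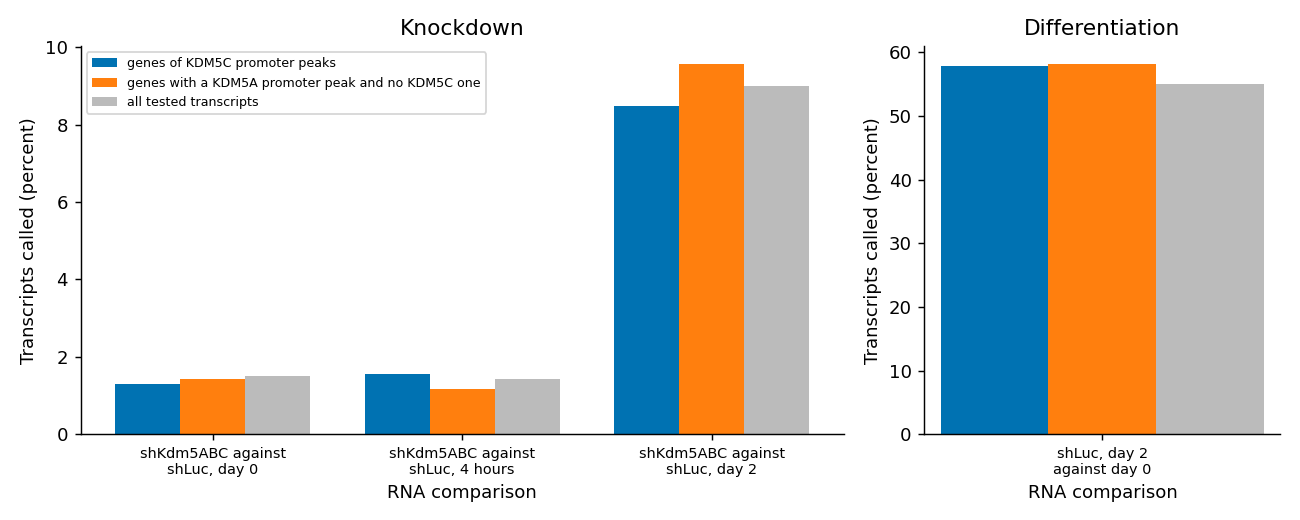
Percent of transcripts called (limma, adjusted p under 0.05) for genes of KDM5C promoter peaks (blue), genes with a KDM5A but no KDM5C promoter peak (orange) and all tested transcripts (grey), for shKdm5ABC against shLuc at 3 times and for day 2 against day 0 in shLuc cells. At day 2 of the knockdown the blue and grey bars stand at 8.49% and 9.00%.

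The genes of promoter peaks called higher at day 2 with the smallest p were Nynrin, Lbh, Akap13, Serpinb1a, Ugt1a6b and Ugt1a6a. Nynrin RNA was 8.08 and 8.0 in shKdm5ABC cells, against 6.73 and 6.38 in shLuc cells (difference 1.48, SE 0.14, adjusted p 0.00132 by limma). Lbh, a transcription cofactor gene, was 6.39 and 6.09, against 4.54 and 4.76 (1.59, SE 0.18, adjusted p 0.00175). Akap13, an anchoring protein for protein kinase A, was 7.85 and 7.60, against 6.66 and 6.68 (1.06, SE 0.13, adjusted p 0.00207). In shLuc cells these 3 genes were lower at day 2 than at day 0, with differences of -1.82, -5.24 and -1.52, and the day 2 shLuc libraries enter both comparisons. The p-values of Ugt1a6a and Ugt1a6b are uncertain as separate results, since these glucuronosyltransferase genes share exons and reads may be split between them. Both were at 10.07 to 10.64 in shKdm5ABC cells, against 8.41 to 8.91 in shLuc cells.

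Serpinb1a, an inhibitor of serine proteases, rose at all 3 times. It was 5.58 and 5.10 in shKdm5ABC cells at day 2, against 3.74 and 3.31 in shLuc cells, and its 3 differences, in order of time, were 1.81, 1.43 and 1.81 (adjusted p 0.00583, 0.0156 and 0.00223 by limma). With 1 library left out, the call held in 1 of 4 cases at day 0, 0 of 4 at 4 hours and 4 of 4 at day 2. The shKdm5ABC and shLuc libraries did not overlap at day 2, as the choice of this gene requires. Of the 2002 tested transcripts of promoter peaks, 502 were apart in this direction at day 2 and 570 in the other. The same count was not made over all tested transcripts, so it is no result about genes with KDM5C. The KDM5C peak of Serpinb1a had 44.1 and 22.2 tags over 2.70, with little KDM5A (9.08 and 8.50 tags at day 2).

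Those called lower with the smallest p were Sumo3, Rdh11, Cdc20, Elovl4, Rrn3 and Ptges2. Sumo3, a ubiquitin-like modifier, was 7.98 and 7.90 in shKdm5ABC cells, against 8.97 and 8.90 in shLuc cells, with differences of -0.90, -0.77 and -0.99 at day 0, 4 hours and day 2 (adjusted p 0.00455, 0.0111 and 0.00147). Rrn3, an initiation factor of RNA polymerase I, was 7.74 and 8.21, against 9.24 and 9.57, with differences of -1.13, -1.09 and -1.43 at the 3 times (adjusted p 0.0331, 0.0398 and 0.0047). Cdc20, which activates the anaphase-promoting complex in mitosis, was 7.62 and 7.70, against 8.89 and 8.62 (fell by 1.09, SE 0.16, adjusted p 0.0047). Rdh11, a retinol dehydrogenase, fell by 1.02, Elovl4, an elongase of very long fatty acids, by 1.45, and Ptges2, a prostaglandin E synthase, by 0.65 (adjusted p 0.00424, 0.0047 and 0.00714). Of these 12 genes, 9 stayed called at day 2 whichever of the 4 day 2 libraries was left out, while Cdc20 stayed called in 3 of the 4 cases and Rrn3 and Ptges2 in 2. At day 0 Sumo3 stayed called in 4 of 4 cases and Rrn3 in 0, and at 4 hours both stayed called in 0 of 4.

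**Figure D5:**
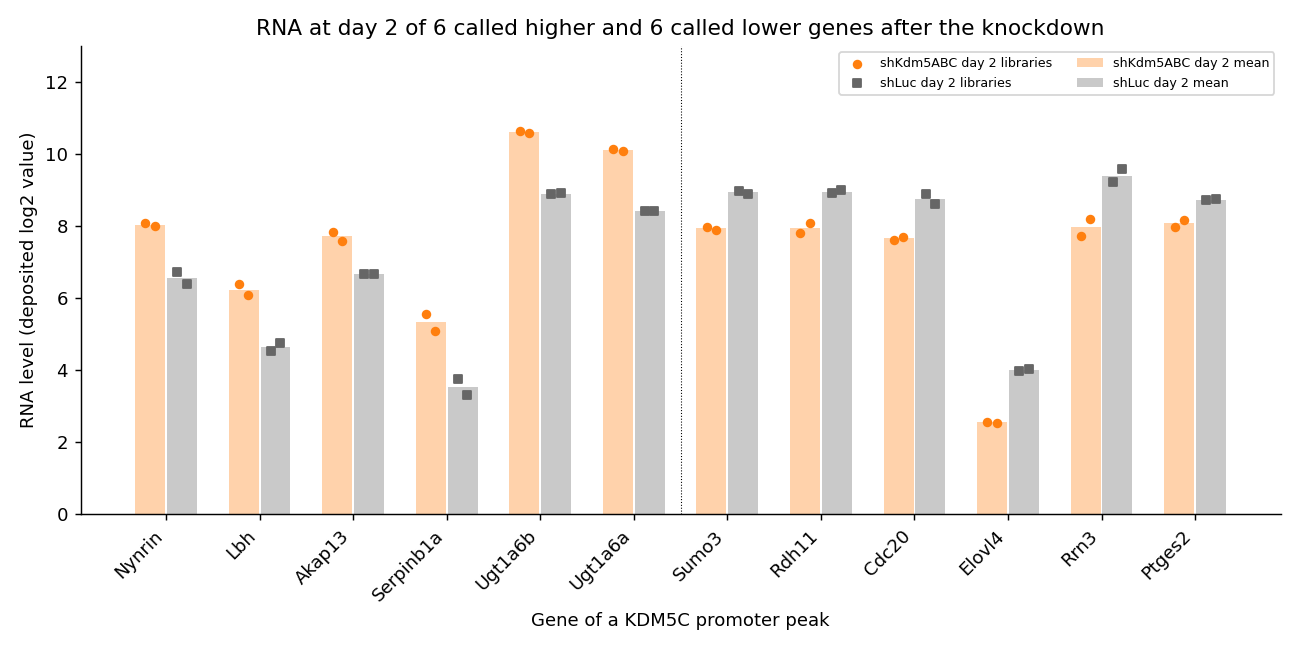
Deposited log2 RNA level at day 2 of 12 genes of KDM5C promoter peaks in shKdm5ABC (orange) and shLuc (grey) cells, as group means (bars) and the 2 libraries of each (points). Left of the dotted line are the genes called higher and right of it those called lower. The 2 shKdm5ABC points lie outside the range of the 2 shLuc points for each gene, as the choice of these genes requires.

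Serpinb1a and Sumo3 were also among the smallest p before induction or at 4 hours, beside the following genes. Ephx2, the soluble epoxide hydrolase, was 8.95 and 9.10 in shKdm5ABC cells at day 0, against 7.67 and 7.79 in shLuc cells, and rose at each time (1.29, 0.96 and 0.61, adjusted p 0.00164, 0.00599 and 0.0109). Klf5, a factor of early adipogenesis, rose by 1.22 at day 0 (adjusted p 0.00583), and Atf5, a stress-response factor, fell by 1.38 (adjusted p 0.00164). Isg15, an interferon-induced modifier, was 7.39 and 7.73 in shKdm5ABC cells at day 0, against 9.89 and 10.34 in shLuc cells, and fell by 2.56 at day 0 and 1.71 at 4 hours (adjusted p 0.00164 and 0.0111). Paqr3 fell by 2.00 at day 0 (adjusted p 0.00363). At 4 hours Ptpn6, a tyrosine phosphatase, and Lmbr1 rose by 1.52 and 1.38 (adjusted p 0.00649 and 0.00745), and Col4a5, a basement membrane collagen, fell by 1.51 (adjusted p 0.0019). Leaving out 1 library of the time in question, Ephx2, Atf5 and Isg15 stayed called at day 0 in 4 of 4 cases, Paqr3 in 3 and Klf5 in 2, and at 4 hours Ptpn6 and Col4a5 stayed called in 4 of 4, Ephx2 in 3 and Isg15 and Lmbr1 in 2.

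Between day 2 and day 0 these genes changed about as often as others. In shLuc cells, 1158 of 2002 transcripts were called between day 2 and day 0 (57.8%, 612 higher and 546 lower), against 55.0% of all tested transcripts and 58.1% of genes with KDM5A and no KDM5C promoter peak. Over all tested transcripts 27.1% were higher and 27.8% lower, and with the replicate block 1405 of the 2002 were called, against 66.8%. Among those higher with the smallest p were Il15ra, Gprc5b and Adipor2. Il15ra, a receptor subunit for interleukin 15, was 9.15 and 8.81 at day 2, against 4.62 and 4.59 at day 0 (adjusted p 1.71e-07). Among those lower, Lbh was 4.54 and 4.76, against 9.65 and 10.12 (adjusted p 1.17e-07), and Lox, which crosslinks collagen, was 7.13 and 7.42, against 12.07 and 11.96 (adjusted p 1.68e-07). The differences were -2.83 for Vat1 and -3.91 for Svep1 (adjusted p 1.27e-07 and 1.68e-07). The knockdown effect differed between day 2 and day 0 for 3 of the 2002, all higher at day 2 (0.15%), against 0.310% of all transcripts (0.310% higher and 0% lower), and for 149 with the block, against 7.67%.

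Gene groups were covered to different extents. Of all tested genes with an identifier, 2001 of 13452 (14.9%) had a KDM5C promoter peak, and of those with an H3K4me3 peak 1778 of 9954 (17.9%). In the group of MYC, MAX and E2F6 complex genes 7 of 20 tested genes had one (35%), in that of H3K4 methylation writers and other erasers 9 of 29 (31.0%), in that of adipocyte lipid and secreted genes 9 of 29 and in that of cytosolic ribosomal proteins 12 of 45 (26.7%). Low shares were found for mitosis and cytokinesis (4 of 53, 7.55%), oxidative phosphorylation (2 of 51, 3.92%) and the proteasome (1 of 31, 3.23%), although H3K4me3 peaks covered 48 of 53, 41 of 51 and 27 of 31 of these. No Kdm5 gene had a KDM5C promoter peak, and the nearest to Kdm5b lay 3032 bp away. The groups hold few genes with a peak, and their shares were not tested.

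Among the transcription regulators, Mga, a MAX partner of the E2F6 complex, had 163 and 93.5 KDM5C tags over 12.6. Its RNA at day 2 was 6.96 and 7.38 in shKdm5ABC cells, against 6.90 and 7.20 in shLuc cells, a difference within the spread between replicates (adjusted p 0.776 by limma). None of the 7 genes with a peak in this group was called at day 2 of the knockdown. In the group of H3K4 writers and other erasers, Ash2l, a core subunit of the H3K4 methyltransferase complexes, had 119 and 46.8 tags over 8.10. Of its 9 genes with a peak, only Kdm3a was called (2 genes with the replicate block), at 9.27 and 8.97 in shKdm5ABC cells, against 8.57 and 8.34 in shLuc cells (rose by 0.66, adjusted p 0.0141). Of its 20 genes without a peak 2 were called. Over all tested transcripts 9.00% were called, and 28.1% with the block, and neither group was tested against this background.

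Some cell cycle genes fell at day 2 of the knockdown, among genes with and without a KDM5C promoter peak, but none of those with a peak stayed called in a fit to the 4 day 2 libraries alone. In the group of DNA replication and nucleotide synthesis, 6 of 11 genes with a peak fell and none rose, against 15 of 39 without a peak, over a background of 3.34% of all tested transcripts called lower. Tyms, Mcm6, Gins2, Timeless and Cdc45 were among the 6, which had changes of -0.95 to -0.69 (adjusted p 0.013 to 0.0443). Tyms, the thymidylate synthase, was 6.46 and 6.41 in shKdm5ABC cells, against 7.52 and 7.25 in shLuc cells, and its KDM5C peak had 50.9 and 18.5 tags over 4.50. Pold1, the polymerase gene with the highest KDM5C peak of the group (78.1 and 24.6 over 3.60), was 6.20 in both shKdm5ABC libraries at day 2, against 7.05 and 6.62 in shLuc cells (adjusted p 0.06, and 0.00886 with the replicate block). In the E2F, RB and G1/S group 3 of 6 genes with a peak fell (Lin9, Mybl2 and Cdc25a), and 5 of 20 without a peak fell and 1 rose. Mybl2, a partner of the LIN9 complex, was 4.41 and 4.60 in shKdm5ABC cells, against 5.72 and 5.30 in shLuc cells (adjusted p 0.0218). In the mitosis group 1 of 4 with a peak fell, Cdc20, and 31 of 49 without a peak fell. Of the 11 replication genes with a peak, 10 rose between day 0 and day 2 in shLuc cells, by 0.94 to 3.31, as did 37 of 39 without a peak and 27.1% of all tested transcripts. The knockdown calls of this group rest on single libraries: of the 6, 1 stayed called without shKdm5ABC replicate 1 (Gins2), 1 without shKdm5ABC replicate 2 (Tyms) and 0 without shLuc replicate 1 or 2. With the replicate block the 6 stayed called, and 9 of 11 with a peak and 32 of 39 without one were lower. Over all tested transcripts, 1924 of 13534 were lower with the block. Of the 3 E2F group calls, 3 stayed without shKdm5ABC replicate 2 and 0 without any one of the other 3 day 2 libraries. With the block 5 of the 6 genes with a peak in that group were lower.

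Of 9 adipocyte lipid and secreted genes with a peak, 8 rose between day 0 and day 2 in shLuc cells, by 2.07 to 6.32, as did 17 of 20 without a peak and 27.1% of all tested transcripts. At day 2 of the knockdown 0 of the 9 were called, and 1, lower, with the replicate block, against 9.00% and 28.1% of all tested transcripts. Lipe, the hormone-sensitive lipase, had the highest KDM5C peak among them, with 156 and 80.0 tags over 10.8, 836 bp downstream of the start site. Its RNA was 10.98 and 11.40 at day 2 in shLuc cells, against 5.47 and 5.75 at day 0 (difference 5.58, SE 0.35, adjusted p 1.27e-06). At day 2 it was 10.63 and 11.43 in shKdm5ABC cells, which overlaps the shLuc range. Scd1, the main fat-cell desaturase of this family, had 61.1 and 36.9 tags over 4.50, and its RNA was 12.59 and 13.05 at day 2, against 8.28 and 8.56 at day 0 in shLuc cells (adjusted p 4.08e-06). In the group of adipogenic transcription factors, which has 6 genes with a peak, Srebf1 (44.1 and 33.2 over 2.70) and Cebpd (40.7 and 12.3 over 2.70) carried the highest peaks.

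Of 6 extracellular matrix genes with a peak, Col8a1, Lox and Timp2 rose at day 2 of the knockdown, by 1.03, 1.23 and 1.25 (adjusted p 0.0289, 0.00666 and 0.00526), and none fell, against 5 higher of 27 without a peak. Over all tested transcripts 5.66% were called higher. In a fit to the 4 day 2 libraries alone none of the 3 stayed called. Timp2, a metalloproteinase inhibitor, was 10.74 and 10.21 in shKdm5ABC cells, against 9.43 and 9.02 in shLuc cells. Without shLuc replicate 2, Lox alone of the 3 stayed called. Pdgfra RNA was 10.88 and 10.31 in shKdm5ABC cells, against 9.88 and 8.94 in shLuc cells (rose by 1.19, SE 0.26, adjusted p 0.023), and Pdgfra and Kdm3a each stayed called in 2 of 4 cases with 1 library left out. None of the 12 ribosomal protein genes with a peak was called at day 2 of the knockdown, and 1, higher, with the block. The shares of all tested transcripts called were 9.00% and 28.1%. Nop56, which guides ribosomal RNA methylation (173 and 73.8 over 15.3), was 10.31 and 10.38 in shKdm5ABC cells at day 2, against 10.87 and 10.72 in shLuc cells (adjusted p 0.0792), and 2.02 higher at day 2 than at day 0 in shLuc cells. With the replicate block the adjusted p of Nop56 was 0.0223. In its group, ribosome biogenesis, Npm1 and Utp18 fell with the knockdown among 9 genes with a peak, against 8 lower of 38 without one and 3.34% of all tested transcripts. With the block, 1924 of all 13534 tested transcripts were lower. Npm1 lost its call whichever of the 4 day 2 libraries was left out and Utp18 in 2 of the 4 cases, while with the block 5 of the 9 and 20 of the 38 were lower.

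KDM5A over the KDM5C promoter peaks was compared between day 2 and day 0. Only 3 of 2005 tested KDM5A peaks were called, all higher (0.15%), against 0.276% of all 72854 tested KDM5A peaks (0.214% higher and 0.0618% lower). An unadjusted p under 0.05 by limma was found for 27 of the 2005, against 5455 of all 72854. The 3 called peaks were those of Bcl2l10, Orm2 and Tyms-ps, the last 2 chosen after their values were seen. The peak of Bcl2l10, a BCL2 family gene, had 95.3 and 54.9 KDM5A tags at day 2, against 15.61 and 7.39 at day 0 (difference 2.64, SE 0.62, adjusted p 0.0192 by limma). The peak of Orm2, an acute-phase glycoprotein, had 38.6 and 26.3, against 3.9 and 4.55, and that of Tyms-ps 27.2 and 23.2, against 5.85 and 1.14. The edgeR and DESeq2 tests on recovered reads called 0, as did leaving out either day 2 library or day 0 replicate 2. For these KDM5A fits, p rests on the spread over all peaks and not on that of the single peak. With the replicate block 11 were called, against 1.29% of all. Over all tested KDM5A peaks the median difference was 0.36, and over the 2005 it was 0.40.

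By the headings, 471 of 1936 H3K4me3 peaks over KDM5C promoter peaks were called between KDM5_KD_D2 and Control_D2 (24.3%, 465 higher and 6 lower), against 24.0% of all 10702 H3K4me3 peaks (23.8% higher and 0.243% lower). The count was 1096 with the replicate block, against 53.1% of all peaks. Between the day 0 columns 666 were called (34.4%, 664 higher and 2 lower), against 32.9% (32.7% higher and 0.196% lower), and 1261 with the block, against 60.5%. Between the 4 hours columns 684 were called (35.3%, 38 higher and 646 lower), against 35.9% (1.62% higher and 34.3% lower), and 1152 with the block, against 58.2%. Between Control_D2 and Control_D0, 37 were called (1.91%, 25 higher and 12 lower), against 1.97% (1.31% higher and 0.663% lower), and 312 with the block, against 15.4%. The shares of these peaks called lay near those of all H3K4me3 peaks in each comparison.

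The H3K4me3 counts depended on scaling and on single libraries. The median log2 difference over all peaks was 0.29, -0.23 and 0.25 between the columns headed knockdown and control at day 0, 4 hours and day 2. Centred on each column's median, the calls were 168 higher and 22 lower at day 0, 182 higher and 376 lower at 4 hours, and 116 higher and 20 lower at day 2. The day 0 count was 282 without Control_D0_1 and 316 without KDM5_KD_D0_1. The day 2 count was 192 without Control_D2_1, 287 without Control_D2_2, 211 without KDM5_KD_D2_1 and 232 without KDM5_KD_D2_2. The count between Control_D2 and Control_D0 was 6 to 20 whichever of its 4 columns was left out.

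Among these peaks, the one of Lipe had the largest difference by the headings. It had 1174 and 701 tags in KDM5_KD_D2 columns, against 40.4 in both Control_D2 columns, while its RNA did not differ beyond the replicate spread between shKdm5ABC and shLuc cells at day 2. Cldn15 had 1639 and 1315 tags, against 84.9 and 98.7, and Ugt1a6b had 597 and 539, against 46.5 and 54.6. Of those with fewer tags in KDM5_KD_D2 columns, the largest differences were at Plaur (180 and 194, against 349 and 365), Rtp4 (217 and 241, against 357 and 392) and Gpr153 (369 and 464, against 647 and 696). With 1 column left out, Plaur and Rtp4 stayed called in 0 of 4 cases and Gpr153 in 3. The H3K4me3 values of these genes carry the same doubt about the headings.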

How the data were processed

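The deposited KDM5C, KDM5A and H3K4me3 values are signal, as tags per merged peak that the authors scaled to a common library total. The deposited RNA values are log2 of tags per kb of transcript. Distances to the start site (bp) and gene names are deposited with the peaks. The submitters' processing notes list DESeq2, HOMER, STAR, Subread and Bowtie2 (with version 0.12.8) and the build mm9, and peak-calling settings are not given in the sources used here. The input sample labelled as virus was not analysed here.

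Reads were recovered from the tag steps (100% of values within 0.1 of a whole number), and intervals from them would cover counting error only. The comparison of groups used limma 3.58.1 in R 4.3.3: 1 fit per assay over all its libraries with a mean-variance trend, 2-sided, Benjamini-Hochberg adjusted p under 0.05 over all tested features. RNA was filtered at a log2 value of 1 in 2 libraries, and ChIP, as log2(tags + 1), at 5 tags in 2 libraries. KDM5C has only 2 libraries at 1 time and was compared with input by ratio alone. edgeR 4.0.16 and DESeq2 1.42.0 on recovered reads were alternatives. The fits were tested on simulated data. An exact permutation test of 2 against 2 libraries cannot go below p = 0.333. Whether equal replicate numbers pair libraries was judged from the correlation of their deviations from group means: 0.381 to 0.657 for RNA and 0.504 to 0.790 for H3K4me3 over 15 pairs of groups, so blocked counts are given. The number comes from the sample titles.

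Members, gene lists and rules were chosen with earlier results of these data known. Named genes were the 12 highest peaks, the highest peaks of each list and without H3K4me3 or KDM5A, the smallest RNA p-values and the largest called ChIP differences, and the peaks at the distance limit and of lowest ratio. A few genes that these rules name are not reported here. Sequences are from RefSeq (GRCm38.p6), matched by gene identifier for 1726 of the peaks.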

Additional observations from a re-analysis of the deposited data

Results flagged for a closer look

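For 3 genes of KDM5C promoter peaks the effect of the knockdown on RNA differed between day 2 and day 0 (0.15% of 2002, against 0.310% of all tested transcripts), by the interaction term of the limma fit. For Lbh the knockdown effect was 2.00 higher at day 2 than at day 0 (SE 0.26, adjusted p 0.0253): shKdm5ABC minus shLuc was 1.59 at day 2 and -0.41 at day 0. For Isg15 the difference was 2.10 (adjusted p 0.0383), from -0.45 at day 2 and -2.56 at day 0, where shLuc RNA itself was 4.97 and 5.07 at day 2 and 9.89 and 10.34 at day 0. For Samhd1, a dNTP hydrolase chosen after its values were seen, the difference was 1.27 (adjusted p 0.0434), from 1.02 at day 2 and -0.26 at day 0. Its KDM5C peak had 33.9 and 8.61 tags over 0.90. With the replicate block, 149 genes had such a difference, and the 3 had adjusted p of 0.00163, 0.00351 and 0.00164. Without shKdm5ABC day 2 replicate 2 the count was 20, and without any one of the other 7 libraries it was 0.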

How the results depend on the processing

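RNA counts with replicate block were 198, 207 and 600 at day 0, 4 hours and day 2 of the knockdown and 149 for the difference of effects (26, 31, 170 and 3 without). With only the compared groups they were 1, 0, 2 and 0, where 4 libraries (8 for the difference of effects) leave few degrees of freedom, while the shLuc time count stayed within 1.5 times of 1158 under all settings. The difference of effects also gave 0 with no filter on low values and 1 with no mean-variance trend. Leaving out 1 library each gave 5 to 11, 2 to 7, 19 to 138, 945 to 969 (time) and 0 to 20 (difference of effects). For H3K4me3 by headings, the replicate block gave 1261, 1152, 1096 and 312 (time). Centring gave 190 at day 0 and 136 at day 2, edgeR 179 and 122, DESeq2 258 and 193 and 94 for time, only the compared groups 306 at day 2 and 13 for time, and peaks within 500 bp 21 for time. Leaving out 1 library gave 282 to 530, 456 to 603, 192 to 287 and 6 to 20. KDM5A calls were 11 with the replicate block (same-numbered libraries correlated at 0.0594 to 0.336, so it is uncertain whether the numbers pair), 1 with no filter, 5 with only the compared groups, 0 by edgeR and by DESeq2 and 0 to 3 without 1 library. The share of promoter peaks at 4 times input in both libraries, 67.9%, was 10.0% with (tags + 5)/(input tags + 5), since the median input was 1.80 tags, and 68.4% to 99.5% with 1 library. Overlaps stayed within 1.5 times of their values. The cause of the other changes was not tested. Of 1290 values of named genes and peaks under alternatives, 1095 kept direction and call, 195 kept direction and lost the call, and 0 reversed. The absence of reversals was largely fixed in advance. The replicate block, the filters, the trend setting and the fit to the compared groups alone leave the difference itself unchanged. Genes of smallest RNA p were also chosen with groups that did not overlap. The KDM5C libraries, at a median of 8 and 10 reads per peak, limit any statement on single peaks.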
